A study of Mus musculus with 24 samples.

Results

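The comparison described here is that of young long-term hematopoietic stem cells (LT-HSC) with young short-term stem cells (ST-HSC), taken by their labels: the 4 young LT-HSC libraries against the 4 young ST-HSC libraries, 8 of the 24 libraries of the study. Transcripts were measured by bulk RNA-seq in cells sorted from bone marrow of male C57BL/6 mice that carried no engineered allele or treatment in the labels. All sorted cells came from marrow enriched for CD117 and lay in the LSK gate, which takes cells without lineage markers that carry Sca1 and Kit. Within that gate LT-HSC were CD150+CD48- and ST-HSC were CD150-CD48-, so CD150 alone separates them. The young mice were 12 weeks old. Aged mice of 107 weeks, sorted the same way, gave 4 LT-HSC and 4 ST-HSC libraries that are used for one further comparison, and young multipotent progenitors (MPP, CD150-CD48+) are quoted for levels only. Of 24421 genes in the table, 14205 had enough counts to be tested.

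Blood stem cells are defined by what they do after transplantation: long-term cells rebuild all blood lineages for life, while short-term cells do so only for a time and stand closer to the dividing progenitors that feed the lymphoid and myeloid lineages. CD150 (encoded by Slamf1) and CD48 are receptors of the SLAM family, and their pattern on LSK cells is a common way to enrich one or the other. LT-HSC are mostly quiescent, and part of them is known to carry transcripts of the platelet lineage.

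The young LT-HSC libraries held 7583212 to 12946550 counts and the young ST-HSC libraries 7609208 to 10409244, with 14991 to 16024 and 14929 to 15387 genes detected. The 45S ribosomal RNA gene took 6.85% to 10.9% and 6.23% to 9.19% of the counts. Levels are CPM, the counts of a gene scaled to the size of its library as adjusted by edgeR's TMM factors. They are not corrected for transcript length and so are compared only within a gene. Differences are LT-HSC minus ST-HSC on the log2 scale, tested with edgeR's quasi-likelihood method, p-values being adjusted by Benjamini-Hochberg over all tested genes, and a gene counts as higher or lower when its adjusted p is under 0.05. By that rule 1780 genes (12.5%) differed, 964 (6.79%) higher and 816 (5.74%) lower in LT-HSC. At least 2-fold differences were found for 526 (3.7%) and 257 (1.81%) of the genes. The 4 values of one population all lay above the 4 of the other for 2484 genes (17.5%), and the median log2 difference of all tested genes was 0.01. The labels count 4 mice per age without tying a library to a mouse, so the p-values measure the spread between samples. That spread was estimated from all 24 libraries, the aged and MPP libraries included. In sorted bulk samples, more cells of one kind and more RNA per cell cannot be told apart.

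Of the sort genes, Slamf1, Ly6a and Kit followed the gates. Slamf1 measured 31.8, 25.4, 23.0 and 24.6 CPM in LT-HSC libraries 1 to 4 and 0.625, 1.53, 0.379 and 0.622 CPM in ST-HSC libraries 1 to 4, a log2 difference of 5.03 ± 0.54 (SE), adjusted p = 7.3e-07. Every LT-HSC value was far above every ST-HSC value, and MPP held 0.545 ± 0.637 CPM. Ly6a, the gene of Sca1, and Kit were used alike for both gates and did not pass the test: Ly6a had 58.4 ± 7.19 against 60.6 ± 9.49 CPM (log2 -0.06, 95% interval -0.64 to 0.53) and Kit 1452 ± 103 against 1441 ± 89.6 CPM (log2 0.01, 95% interval -0.14 to 0.16).

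Cd48 was lower in LT-HSC even though both gates exclude CD48 protein. Its values were 0.356, 0.255, 3.54 and 0.837 CPM in LT-HSC libraries 1 to 4 and 11.4, 7.64, 11.8 and 15.2 CPM in ST-HSC libraries 1 to 4, a log2 difference of -3.16 ± 0.41 (SE), adjusted p = 8.3e-06. The groups did not overlap, and library 3 was the highest of the LT-HSC libraries: without it their mean was 0.483 rather than 1.25 CPM. MPP, which are sorted as CD48+, held 66.4 ± 2.92 CPM. Cd244, another SLAM family receptor, measured 1.66, 2.04, 7.09 and 2.43 CPM in LT-HSC against 52.2, 41.3, 52.3 and 53.2 CPM in ST-HSC (log2 -3.89 ± 0.30 (SE), adjusted p = 5.2e-09), again with the highest LT-HSC value in library 3, without which the LT-HSC mean was 2.05 rather than 3.31 CPM. Cd244, Cd48 and Slamf1 are neighbours on chromosome 1, in that order: Cd244 at 171559193 to 171609746, Cd48 at 171682009 to 171705258 and Slamf1 at 171767127 to 171801184 (GENCODE M21 gene spans, GRCm38), with 72262 and 61868 bases between them. Slamf1 was higher and its neighbours lower in LT-HSC.

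Promoter sequences are shown for 6 genes on which the largest differences turn: Slamf1 as the gene of the sorted antigen, Evc and Evc2 as a head-to-head pair, Meg3 for the imprinted RNAs, and Flt3 and Dntt for the genes higher in ST-HSC. Each is the RefSeq window from 250 bases before to 50 bases after a start site (GRCm38.p6), printed 5′ to 3′ on the gene's strand, with capitals marking the letters searched for below, on either strand. The windows lie at chr1:171766882-171767181 (plus strand) for Slamf1, chr5:37336832-37337131 (minus) for Evc and chr5:37338228-37338527 (plus) for Evc2. Those of Meg3, the first of 2 listed starts, Flt3 and Dntt lie at chr12:109540746-109541045 (plus), chr5:147400440-147400739 (minus) and chr19:41029025-41029324 (plus).
Slamf1: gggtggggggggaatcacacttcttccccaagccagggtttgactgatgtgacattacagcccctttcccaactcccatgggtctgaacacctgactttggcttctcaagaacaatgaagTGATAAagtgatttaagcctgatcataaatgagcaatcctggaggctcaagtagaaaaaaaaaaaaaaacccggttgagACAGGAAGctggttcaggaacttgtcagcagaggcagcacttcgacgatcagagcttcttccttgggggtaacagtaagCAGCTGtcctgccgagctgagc
Evc: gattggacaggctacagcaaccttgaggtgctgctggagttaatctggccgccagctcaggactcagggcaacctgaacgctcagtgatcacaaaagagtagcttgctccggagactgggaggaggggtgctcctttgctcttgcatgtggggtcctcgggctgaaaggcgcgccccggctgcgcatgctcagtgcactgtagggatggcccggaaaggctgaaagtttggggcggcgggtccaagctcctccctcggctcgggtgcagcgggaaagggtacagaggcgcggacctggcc
Evc2: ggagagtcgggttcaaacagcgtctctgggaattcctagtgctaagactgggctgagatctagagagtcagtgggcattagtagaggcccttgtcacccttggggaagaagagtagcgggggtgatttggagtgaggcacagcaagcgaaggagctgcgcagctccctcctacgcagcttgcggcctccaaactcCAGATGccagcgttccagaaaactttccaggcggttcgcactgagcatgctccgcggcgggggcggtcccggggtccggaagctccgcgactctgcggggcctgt
Meg3: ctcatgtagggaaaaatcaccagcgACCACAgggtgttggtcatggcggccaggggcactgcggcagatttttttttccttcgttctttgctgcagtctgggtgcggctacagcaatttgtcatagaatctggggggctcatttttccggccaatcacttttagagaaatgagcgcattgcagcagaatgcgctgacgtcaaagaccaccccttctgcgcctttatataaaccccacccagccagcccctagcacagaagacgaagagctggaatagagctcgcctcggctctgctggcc
Flt3: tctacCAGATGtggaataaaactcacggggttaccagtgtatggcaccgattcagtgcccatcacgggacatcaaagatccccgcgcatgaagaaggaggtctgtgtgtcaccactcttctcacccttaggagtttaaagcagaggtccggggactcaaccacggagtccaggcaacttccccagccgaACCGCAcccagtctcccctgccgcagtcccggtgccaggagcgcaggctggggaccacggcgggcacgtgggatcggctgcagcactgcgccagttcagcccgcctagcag
Dntt: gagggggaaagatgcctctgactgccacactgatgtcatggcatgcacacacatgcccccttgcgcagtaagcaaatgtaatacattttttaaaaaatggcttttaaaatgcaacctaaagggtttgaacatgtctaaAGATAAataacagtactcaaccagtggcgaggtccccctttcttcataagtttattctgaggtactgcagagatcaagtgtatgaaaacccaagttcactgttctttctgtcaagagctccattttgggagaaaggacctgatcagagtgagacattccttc

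The letters searched, on both strands, were those of motifs of stem cell factors. An E box was read as CAGCTG or, in its related form, CAGATG. The motif of GATA factors was read as the letters AGATAA, or with another first base as TGATAA, while that of RUNX factors was read as the letters TGTGGT, or with another inner base as TGCGGT. ETS motifs were CCGGAAGT, CAGGAAGT, ACCGGAAG and ACAGGAAG, which overlap one another. Slamf1 holds 1 GATA, 1 ETS and 1 E box match, Evc2 and Flt3 hold 1 E box match each, Meg3 and Flt3 1 RUNX match each and Dntt 1 GATA match. A promoter window matched 10644 of the 14205 tested genes, 373 of the 526 genes at least 2-fold higher in LT-HSC and 192 of the 257 at least 2-fold lower. An E box match was in 35.7% of the windows of the higher genes, 28.6% of the lower, 25.2% of the tested genes and 30.4% of all 27018 promoters. A GATA match was in 14.2%, 17.7%, 10.7% and 19.0% of the same 4 sets. RUNX matches were in 20.1%, 24.5%, 21.3% and 22.5%, and ETS matches in 5.90%, 10.9%, 14.8% and 10.5%. These shares describe letters in a window and were not tested.

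Genes most strongly higher in LT-HSC, among called genes with a mean of at least 10 CPM over the 8 libraries and no overlap of the groups, included Sdpr, Evc, Evc2, Slamf1, Cyp26b1, Vwf, Clec1a, Pclo, Sorbs2, Thsd4 and Igf2bp2. Sdpr (Cavin2), a coat protein of caveolae, measured 50.4, 40.5, 30.5 and 50.1 CPM in LT-HSC libraries 1 to 4 and 0.125, 0, 0.853 and 0 CPM in ST-HSC libraries 1 to 4. Every ST-HSC library stayed under 1 CPM, far below the lowest LT-HSC library, a log2 difference of 7.20 ± 0.67 (SE), adjusted p = 2.9e-07. Cyp26b1, an enzyme that breaks down retinoic acid, measured 61.0, 33.0, 36.8 and 70.1 CPM in LT-HSC against 1.63, 2.18, 1.99 and 1.12 CPM in ST-HSC (log2 4.83 ± 0.41 (SE), adjusted p = 4.8e-08). LT-HSC libraries 1 and 4 were the higher ones for Cyp26b1, and the groups stayed apart. Clec1a, a C-type lectin, had 46.5 ± 16.5 against 3.30 ± 1.79 CPM, and Igf2bp2, an RNA-binding protein, 25.6 ± 3.76 against 2.68 ± 1.24 CPM. Pclo, a presynaptic scaffold protein, had 20.5 ± 3.30 against 1.53 ± 1.38 CPM; without ST-HSC library 1 the ST-HSC mean was 0.959 CPM. Thsd4, a matrix protein with thrombospondin repeats, had 25.8 ± 4.18 against 2.49 ± 1.95 CPM, and the ST-HSC mean was 1.55 CPM without library 3. Sorbs2, an adaptor of the actin cytoskeleton, had 21.1 ± 3.92 against 2.00 ± 1.43 CPM.

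Evc and Evc2 encode partner proteins at the base of the primary cilium that act in Hedgehog signalling. Evc measured 19.2, 27.8, 17.2 and 23.1 CPM in LT-HSC libraries 1 to 4 and 0, 0, 0.663 and 0.249 CPM in ST-HSC libraries 1 to 4, a log2 difference of 6.38 ± 0.66 (SE), adjusted p = 4.4e-07. Evc2 measured 36.1, 52.7, 28.8 and 45.7 CPM in LT-HSC libraries 1 to 4 and 0.625, 1.31, 1.04 and 1.74 CPM in ST-HSC libraries 1 to 4, a log2 difference of 5.10 ± 0.63 (SE), adjusted p = 8.3e-06. Both genes were highest in LT-HSC library 2 and lowest in LT-HSC library 3, and neither overlapped between the populations. They lie head to head on chromosome 5, Evc at 37289098 to 37336894 on the minus strand and Evc2 at 37338499 to 37425055 on the plus strand, with starts 1605 bases apart. The library chemistry as described does not mark strand, so reads near the shared start region are assigned without it.

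The 12 genes most strongly higher in ST-HSC by the same rule were Dntt, Sema3d, Cd33, Tespa1, Wfdc17, BC035044, Ccl3, Cd244, Flt3, Cebpa, Cd53 and Chdh. Dntt, the terminal transferase that adds bases to antigen receptor gene joints, measured 0, 0, 0 and 0 CPM in LT-HSC libraries 1 to 4 and 56.7, 18.2, 26.3 and 25.3 CPM in ST-HSC libraries 1 to 4. No LT-HSC library held a Dntt count, against 1101 counts over the 4 ST-HSC libraries, so with a floor of 3 counts over the group Dntt was at least 400-fold lower in LT-HSC (adjusted p = 3.7e-07). MPP held 259 ± 55.6 CPM. Sema3d, a secreted semaphorin, likewise had no count in LT-HSC and 1094 in ST-HSC, at least 398-fold lower, with 0, 0, 0 and 0 CPM in LT-HSC against 20.6, 25.0, 32.6 and 44.3 CPM in ST-HSC (adjusted p = 1.0e-07). In both genes 4 of 4 LT-HSC libraries were at 0.

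Flt3, a cytokine receptor of lymphoid and myeloid progenitors, measured 26.7, 31.7, 28.4 and 28.0 CPM in LT-HSC libraries 1 to 4 and 427, 346, 440.0 and 352 CPM in ST-HSC libraries 1 to 4, a log2 difference of -3.77 ± 0.14 (SE), adjusted p = 3.1e-16. The lowest ST-HSC value was more than 10-fold the highest LT-HSC value. Tespa1, which takes part in T cell receptor signalling, had 2.23 ± 1.46 against 52.0 ± 4.52 CPM, and Cd33, a sialic acid-binding receptor, 0.770 ± 0.699 against 35.8 ± 16.0 CPM. Cebpa, the transcription factor of granulocyte and monocyte commitment, measured 3.80, 0.511, 1.77 and 1.07 CPM in LT-HSC against 15.5, 19.0, 24.3 and 23.4 CPM in ST-HSC (log2 -3.55 ± 0.36 (SE), adjusted p = 2.9e-07); without LT-HSC library 1 its LT-HSC mean was 1.12 rather than 1.79 CPM. The chemokine gene Ccl3 had 2.14 ± 0.619 against 42.5 ± 11.9 CPM, the tetraspanin Cd53 10.5 ± 2.23 against 114 ± 12.8 CPM and BC035044 2.07 ± 0.232 against 41.9 ± 6.93 CPM. The choline-oxidising enzyme Chdh had 2.19 ± 1.82 against 22.2 ± 4.80 CPM, with an LT-HSC mean of 1.37 CPM without library 1. Wfdc17 had 1.13 ± 0.858 against 25.4 ± 18.5 CPM, with an ST-HSC mean of 16.9 CPM without library 4. In the plot of the leading genes by library the 8 values of each gene form separate groups, which the rule that chose them requires.

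**Figure D1:**
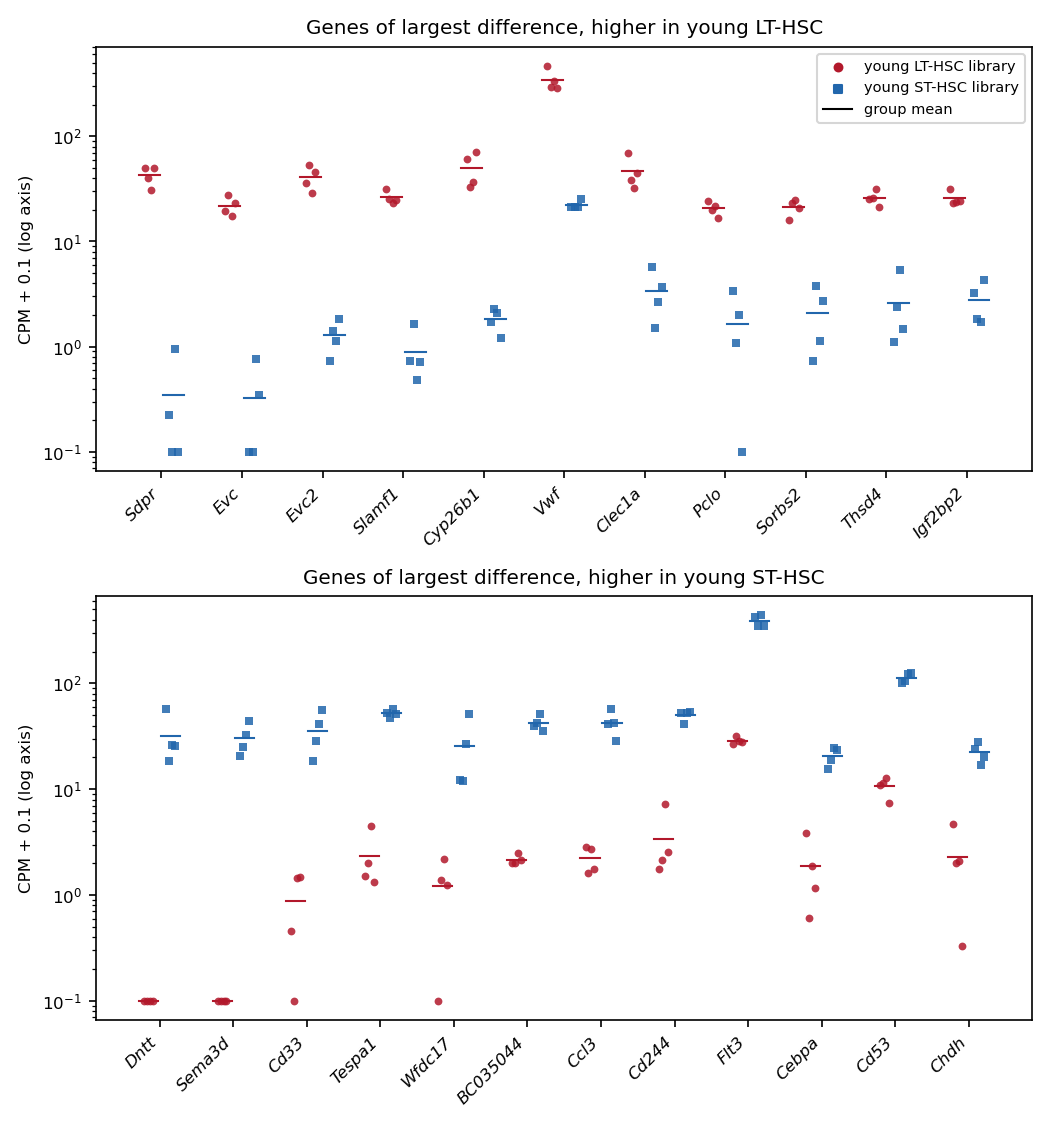
CPM plus 0.1 on a log axis in each of the 4 young LT-HSC and 4 young ST-HSC libraries for the 11 genes named as most strongly higher and the 12 most strongly lower in LT-HSC, with a line at each group mean. No gene shown has overlapping groups, since that was a condition of the choice, and Dntt and Sema3d are at 0 in all 4 LT-HSC libraries.

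Genes were grouped in 35 lists by role, 28 of biology and 7 of markers of other cell types. The share of members higher in LT-HSC was 80.4% in the LT-HSC signature, 59.4% in the platelet list, 36.4% in the imprinted list, 36.2% in the transcription factor list and 33.3% in the adhesion list, beside 6.79% of all tested genes. The share lower in LT-HSC was 41.9% in the lymphoid list, 40.0% in the sort and surface list, 32.3% in the myeloid list and 32.0% in the receptor list, beside 5.74%. The sort and surface, receptor and adhesion lists had large shares both ways, with 26.7% and 28.0% higher in the first pair and 27.5% lower in the adhesion list. No list of the cell cycle machinery had a member that passed edgeR's test in the fit to all 24 libraries. The plot of list shares shows these counts.

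**Figure D2:**
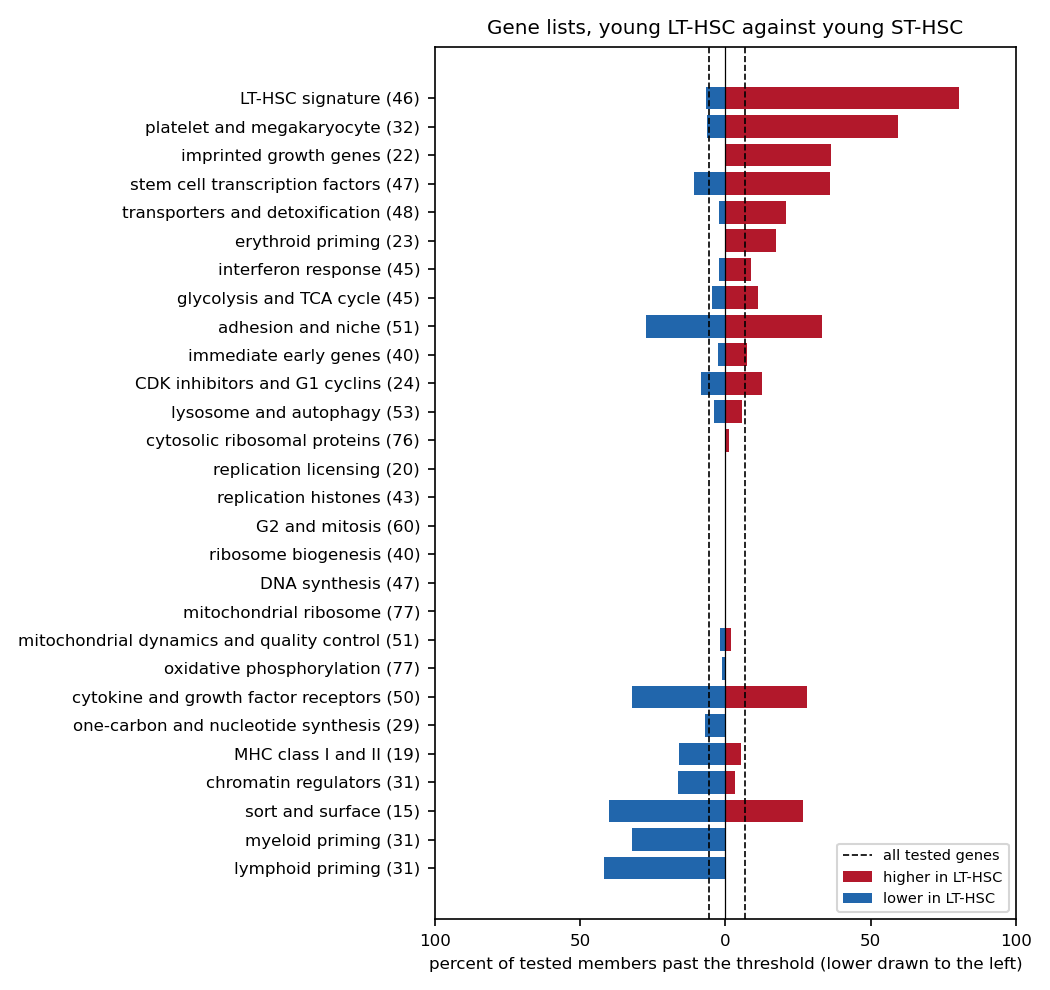
Percent of the tested members of each list that were higher (to the right) or lower (to the left) in young LT-HSC than in young ST-HSC at an adjusted p under 0.05. Dashed lines give the 6.79% and 5.74% of all tested genes, and the 4 lists of cell cycle machinery stand at 0 on both sides.

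The LT-HSC signature, genes reported as high in long-term stem cells, had 37 of 46 tested members higher and 3 lower, with a median log2 difference of 1.21 against 0.01 for all genes. Slamf1, the gene of the antigen that separates the gates, is one of the higher members, so its call follows from the sort. Vwf, the platelet adhesion protein, measured 463, 294, 332 and 286 CPM in LT-HSC libraries 1 to 4 and 21.0, 21.4, 21.1 and 25.4 CPM in ST-HSC libraries 1 to 4, a log2 difference of 3.95 ± 0.24 (SE), adjusted p = 6.0e-10. The ST-HSC libraries lay close together and the LT-HSC libraries spread more widely, with library 1 highest. Sult1a1, a sulfotransferase, measured 142, 117, 90.1 and 117 CPM in LT-HSC against 20.8, 20.6, 14.4 and 20.5 CPM in ST-HSC (log2 2.61 ± 0.15 (SE), adjusted p = 4.1e-12). Mmrn1, a multimerin stored in platelets, had 356 ± 54.0 against 122 ± 15.5 CPM, and Ctnnal1, a relative of alpha-catenin, 48.1 ± 8.36 against 11.8 ± 2.91 CPM. Further members, chosen after their values were seen, were Clca3a1 (14.3 against 0.762 CPM), Gda, guanine deaminase (94.8 against 11.7 CPM), Tgm2, transglutaminase 2 (559 against 78.8 CPM), Socs2, a brake on cytokine signalling (29.1 against 8.05 CPM), Fgd5 (282 against 127 CPM), Hoxb5 (7.04 against 2.22 CPM) and the angiopoietin receptor Tek (70.1 against 22.5 CPM). Their log2 differences were 4.22, 3.00, 2.82, 1.85, 1.14, 1.66 and 1.64, with adjusted p-values from 9.0e-06 to 0.0079.

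Several markers of long-term stem cells went the other way or did not pass the test. Procr (EPCR), widely used to enrich stem cells, measured 44.5, 36.8, 61.3 and 55.5 CPM in LT-HSC libraries 1 to 4 and 47.9, 54.6, 50.1 and 38.6 CPM in ST-HSC libraries 1 to 4. The 2 groups covered the same range, and the log2 difference was 0.05 (95% interval -0.37 to 0.47, adjusted p = 0.93). Vldlr, a lipoprotein receptor, was lower in LT-HSC, with 14.6, 23.9, 28.5 and 14.9 CPM in LT-HSC against 61.9, 47.5, 80.0 and 61.0 CPM in ST-HSC (log2 -1.62 ± 0.23 (SE), adjusted p = 3.1e-05). Alcam, an adhesion molecule, was lower too, with 96.4, 71.4, 63.2 and 75.8 CPM in LT-HSC against 107, 102, 99.0 and 106 CPM in ST-HSC (log2 -0.44 ± 0.12 (SE), adjusted p = 0.018). Hlf, a transcription factor of stem cells, measured 1199.7, 961, 1086 and 1105 CPM in LT-HSC against 1373, 1351, 1546 and 1357 CPM in ST-HSC (log2 -0.37 ± 0.10 (SE), adjusted p = 0.014). The groups did not overlap for Vldlr, Alcam and Hlf, but the calls of Alcam and Hlf were lost when single libraries were left out: Alcam without LT-HSC library 2, 3 or 4 or ST-HSC library 1 (adjusted p from 0.054 to 0.10), and Hlf without LT-HSC library 2 (0.081) or ST-HSC library 3 (0.084).

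Among 47 stem cell transcription factors 17 were higher and 5 lower in LT-HSC, with a median log2 difference of 0.42. Mllt3, which sustains stem cell programs through chromatin, measured 411, 284, 330.4 and 304 CPM in LT-HSC against 138, 111, 136 and 116 CPM in ST-HSC (log2 1.41 ± 0.12 (SE), adjusted p = 6.0e-09). Each LT-HSC library held more Mllt3 than any ST-HSC library. Mecom had 342 ± 14.9 against 191 ± 5.79 CPM (log2 0.84) and Gata2 413 ± 61.1 against 209 ± 31.5 CPM (log2 0.98), with adjusted p-values of 1.2e-07 and 2.7e-07. The 5 lower factors were Gfi1, Ikzf2, Hoxa9, Foxo3 and Hlf. Gfi1, a repressor that restrains stem cell division and drives granulocyte fate, measured 20.9, 12.3, 21.3 and 21.5 CPM in LT-HSC against 60.4, 87.5, 72.3 and 63.2 CPM in ST-HSC (log2 -1.89 ± 0.31 (SE), adjusted p = 1.8e-04). Ikzf2 (Helios) had 191 against 291 CPM, Hoxa9 49.6 against 73.2 CPM and Foxo3 179 against 242 CPM.

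Of 32 platelet and megakaryocyte genes 19 were higher and 2 lower in LT-HSC, and the median log2 difference was 0.90. Tbxas1, thromboxane synthase, measured 393, 339.7, 340.0 and 359.9 CPM in LT-HSC libraries 1 to 4 and 153, 201, 179 and 161 CPM in ST-HSC libraries 1 to 4 (log2 1.04 ± 0.13 (SE), adjusted p = 1.1e-06). Itgb3, the beta chain of the platelet fibrinogen receptor, measured 170.2, 169, 125 and 168 CPM in LT-HSC against 33.0, 46.1, 18.4 and 44.1 CPM in ST-HSC (log2 2.17 ± 0.28 (SE), adjusted p = 1.4e-05), and Itga2b, its alpha chain, 123, 106, 83.5 and 95.3 CPM in LT-HSC against 64.2, 66.6, 58.1 and 50.3 CPM in ST-HSC (log2 0.77 ± 0.15 (SE), adjusted p = 7.5e-04). All 3 genes had every LT-HSC value above every ST-HSC value. Some platelet genes were near the counting limit: Gp1bb had 43 counts over the LT-HSC libraries and 0 over the ST-HSC libraries, at least 13.1-fold higher, and Clec1b had 42 and 1, a ratio of 38.5 with a counting interval of 6.54 to 1556. The 2 lower members were Slc35d3, a transporter needed for platelet dense granules, and Plek (pleckstrin). Slc35d3 measured 10.6, 1.66, 2.09 and 2.28 CPM in LT-HSC against 29.9, 48.7, 60.2 and 30.6 CPM in ST-HSC (log2 -3.38 ± 0.40 (SE), adjusted p = 2.6e-06); without LT-HSC library 1 the LT-HSC mean was 2.01 rather than 4.15 CPM. Plek measured 50.7, 11.1, 24.4 and 33.2 CPM in LT-HSC against 93.6, 106, 96.0 and 108 CPM in ST-HSC (log2 -1.75 ± 0.29 (SE), adjusted p = 2.6e-04). Cd9, a tetraspanin of platelets, had 58.7 against 34.9 CPM (adjusted p = 0.021), and its call was lost without LT-HSC library 3 (0.057), ST-HSC library 2 (0.060) or ST-HSC library 4 (0.061).

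Imprinted genes are expressed from one parental allele, and several restrain growth. Of 22 tested, 8 were higher in LT-HSC and none was lower, with a median log2 difference of 1.37. DESeq2 and limma-voom also called none lower. Grb10, an adaptor that dampens insulin and growth factor receptors, measured 260.3, 284, 265 and 263 CPM in LT-HSC libraries 1 to 4 and 54.9, 84.8, 57.3 and 80.8 CPM in ST-HSC libraries 1 to 4, a log2 difference of 1.95 ± 0.21 (SE), adjusted p = 1.1e-06. Cdkn1c, the CDK inhibitor p57, measured 21.2, 21.7, 23.4 and 25.6 CPM in LT-HSC against 7.63, 9.94, 7.29 and 4.86 CPM in ST-HSC (log2 1.63 ± 0.21 (SE), adjusted p = 2.7e-06). Ndn, necdin, measured 31.2, 31.4, 45.1 and 30.4 CPM in LT-HSC against 12.6, 18.2, 14.0 and 13.3 CPM in ST-HSC (log2 1.24 ± 0.23 (SE), adjusted p = 2.5e-04). The LT-HSC values lay above the ST-HSC values in all 3, and MPP held 11.9 ± 4.17 CPM for Grb10, 1.37 ± 0.347 CPM for Cdkn1c and 3.94 ± 0.736 CPM for Ndn.

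The Dlk1 and Meg3 region of chromosome 12 carried 4 of the 8. Rian, a long non-coding RNA, measured 30.1, 13.2, 18.1 and 8.83 CPM in LT-HSC against 1.63, 1.31, 1.99 and 2.49 CPM in ST-HSC (log2 3.23 ± 0.62 (SE), adjusted p = 9.0e-04). Meg3, the non-coding RNA whose promoter is shown above, measured 62.4, 29.5, 62.0 and 28.2 CPM in LT-HSC against 4.38, 8.74, 9.95 and 2.12 CPM in ST-HSC (log2 2.83 ± 0.58 (SE), adjusted p = 0.0020), and Mirg 1.19, 2.81, 3.44 and 1.60 CPM in LT-HSC against 0.125, 0, 0 and 0.373 CPM in ST-HSC (log2 4.13 ± 0.96 (SE), adjusted p = 0.0049). The LT-HSC libraries spread widely for each of these, without overlap with ST-HSC. Dlk1, a protein-coding gene of the same region, measured 5.69, 3.19, 7.19 and 2.28 CPM in LT-HSC against 0, 1.42, 0 and 0.249 CPM in ST-HSC (log2 3.41 ± 0.88 (SE), adjusted p = 0.010), and the log2 difference was 5.70 without ST-HSC library 2, the ST-HSC library with the most. Dlk1 ends 77664 bases before Meg3, Meg3 32213 bases before Rian and Rian 68047 bases before Mirg. H19, on chromosome 7, was counted in 3 of 4 LT-HSC libraries, with 96 counts in all against 0 in ST-HSC, at least 29.3-fold higher; LT-HSC library 2 was at 0, so the groups overlapped. Meg3, Mirg, Dlk1 and H19 were chosen after their values were seen.

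**Figure D3:**
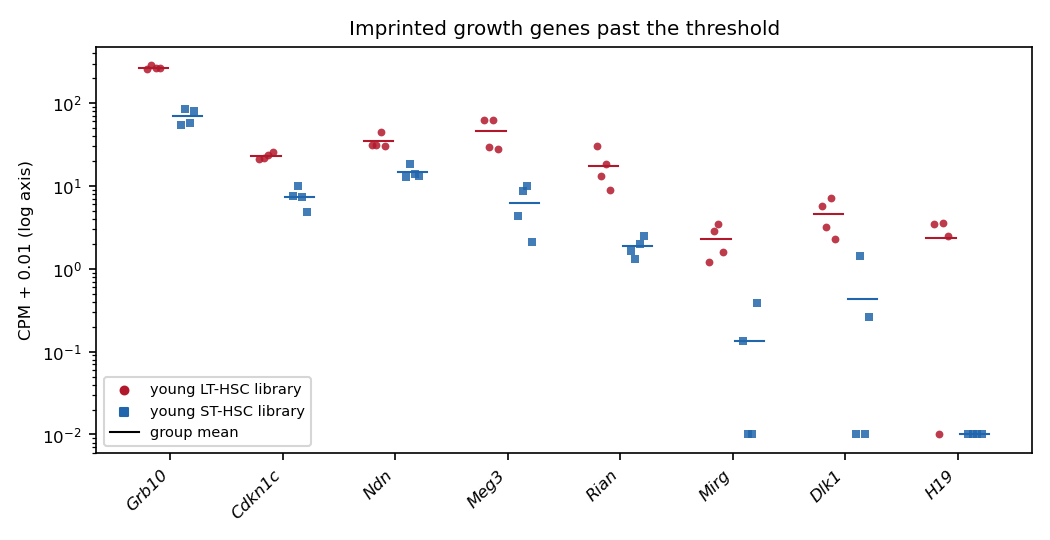
CPM plus 0.01 on a log axis in each young LT-HSC and young ST-HSC library for the 8 imprinted genes higher in LT-HSC, with a line at each group mean. Only H19 has a library of LT-HSC at the level of the ST-HSC libraries.

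Receptors split between the populations: of 50 cytokine and growth factor receptors 14 were higher and 16 lower in LT-HSC, with a median of -0.11. Il1r1, the interleukin-1 receptor, measured 16.4, 8.43, 9.49 and 12.2 CPM in LT-HSC libraries 1 to 4 and 84.6, 56.3, 89.8 and 84.9 CPM in ST-HSC libraries 1 to 4, a log2 difference of -2.76 ± 0.17 (SE), adjusted p = 5.6e-12. Pdgfrb, the platelet-derived growth factor receptor beta, measured 13.3, 15.6, 17.1 and 17.0 CPM in LT-HSC against 86.6, 64.9, 69.2 and 67.6 CPM in ST-HSC (log2 -2.19 ± 0.14 (SE), adjusted p = 1.6e-11). Il10rb had 27.8 ± 2.38 against 60.0 ± 3.24 CPM (log2 -1.11 ± 0.10 (SE), adjusted p = 7.3e-09). For all 3 every LT-HSC library lay below every ST-HSC library. Other receptors lower in LT-HSC, chosen after their values were seen, were Il18r1 (2.53 against 15.3 CPM, log2 -2.62) and Notch1 (249 against 490.4 CPM, log2 -0.98). Those higher included Tgfbr3, a co-receptor of TGF-beta (266 against 77.2 CPM, log2 1.78), Ghr, the growth hormone receptor (18.9 against 2.88 CPM, log2 2.71), and Kdr, a VEGF receptor (8.98 against 0.941 CPM, log2 3.27), also chosen after their values were seen.

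Of 51 adhesion and niche genes 17 were higher and 14 lower, with a median of -0.01. Plxnc1, a semaphorin receptor, measured 663, 700.0, 611 and 686 CPM in LT-HSC libraries 1 to 4 and 289, 313, 298 and 282 CPM in ST-HSC libraries 1 to 4, a log2 difference of 1.17 ± 0.09 (SE), adjusted p = 1.7e-10. Cd34, a sialomucin that marks progenitors and the more active stem cells, measured 123, 187, 235 and 149.6 CPM in LT-HSC against 656, 643, 741 and 630.2 CPM in ST-HSC (log2 -1.94 ± 0.12 (SE), adjusted p = 7.4e-12). Cd44, the hyaluronan receptor, measured 315, 328, 283 and 297 CPM in LT-HSC against 518, 508, 535 and 520.3 CPM in ST-HSC (log2 -0.77 ± 0.08 (SE), adjusted p = 1.4e-07). Plxnc1 was higher and Cd34 and Cd44 lower in each LT-HSC library than in any ST-HSC library. Itgal, the alpha chain of the leukocyte integrin LFA-1, had 7.96 against 69.4 CPM (log2 -3.15). The ephrins Efnb2 (17.7 against 0.819 CPM, log2 4.37) and Efna1 (7.04 against 0.690 CPM, log2 3.32) and the ectoenzyme Cd38 (13.7 against 1.38 CPM, log2 3.32) were higher in LT-HSC. Itgal, Efnb2, Efna1 and Cd38 were chosen after their values were seen.

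Transporters and enzymes of detoxification had 10 of 48 members higher and 1 lower, with a median of 0.10. These were 20.8% and 2.08%, beside 6.79% and 5.74% of all tested genes. Aldh1a1, a retinaldehyde dehydrogenase used to mark stem cells, measured 87.1, 85.8, 60.3 and 80.9 CPM in LT-HSC libraries 1 to 4 and 10.5, 15.0, 5.78 and 22.3 CPM in ST-HSC libraries 1 to 4, a log2 difference of 2.57 ± 0.34 (SE), adjusted p = 2.3e-05. Gstt1, a glutathione transferase, had 16.4 ± 3.45 against 4.16 ± 1.33 CPM (log2 1.97 ± 0.31 (SE), adjusted p = 4.5e-05) and Prdx6, a peroxiredoxin, 259.8 ± 13.8 against 206 ± 8.75 CPM (log2 0.33 ± 0.08 (SE), adjusted p = 0.0078). Abcg2, the efflux pump behind the side population of stem cells, had 75.8, 76.3, 75.1 and 67.1 CPM in LT-HSC against 58.5, 62.6, 55.4 and 53.9 CPM in ST-HSC (adjusted p = 0.015), and its call was lost without ST-HSC library 4 (0.053). Abcb1a had 10.1 against 4.86 CPM (adjusted p = 0.016), and its call was lost without ST-HSC library 1 (0.057) or 3 (0.062). The lower member was Mgst3, with 3.68, 3.83, 4.17 and 2.51 CPM in LT-HSC against 7.00, 17.3, 5.02 and 6.85 CPM in ST-HSC (adjusted p = 0.020); the call was lost without ST-HSC library 2 (log2 -0.81, 0.22), the highest library, or LT-HSC library 4 (0.085), and by limma-voom (0.079). Abcg2, Abcb1a and Mgst3 were chosen after their values were seen.

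Of 31 genes of lymphoid priming 13 were lower in LT-HSC and none was higher, and DESeq2 and limma-voom also called none higher. The median log2 difference was -0.53, or -0.79 with genes at 0 set at their bounds and genes under the floor in both groups left out. Satb1, a chromatin organiser of lymphoid fate, measured 28.1, 24.1, 26.3 and 25.1 CPM in LT-HSC libraries 1 to 4 and 147, 161, 212 and 195 CPM in ST-HSC libraries 1 to 4, a log2 difference of -2.79 ± 0.16 (SE), adjusted p = 5.6e-12. Il12a measured 5.46, 9.58, 8.65 and 9.13 CPM in LT-HSC against 23.4, 20.3, 36.0 and 24.3 CPM in ST-HSC (log2 -1.66 ± 0.18 (SE), adjusted p = 1.9e-07). Like Dntt and Flt3 above, both were lower in each LT-HSC library than in any ST-HSC library. Ikzf1 (Ikaros) had 249 against 377 CPM (log2 -0.60) and Cd52 0.892 against 8.05 CPM (log2 -3.08), both chosen after their values were seen. MPP held 392 ± 28.8 CPM for Satb1. Ccr7 had 3 counts in LT-HSC and 42 in ST-HSC, a ratio of 15.3 with a counting interval of 4.88 to 77.0.

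Of 31 genes of myeloid priming 10 were lower in LT-HSC. None was higher by edgeR or limma-voom, and DESeq2 called 4 higher. Besides Cebpa, Gfi1 and Cd34, they included Csf3r, the receptor of the granulocyte growth factor G-CSF, with 216, 255, 214 and 227 CPM in LT-HSC against 351, 451, 442 and 409 CPM in ST-HSC (log2 -0.86 ± 0.09 (SE), adjusted p = 7.5e-08), and Nkg7, a granule membrane protein, with 28.1, 12.9, 22.5 and 12.8 CPM in LT-HSC against 59.5, 74.1, 56.9 and 54.2 CPM in ST-HSC (log2 -1.69 ± 0.25 (SE), adjusted p = 5.4e-05). Csf3r, Nkg7, Cebpa, Gfi1 and Cd34 had no overlap between the populations. Spi1 (PU.1) had 34.2 against 55.2 CPM (log2 -0.69) and Plac8 16.7 against 99.1 CPM (log2 -2.59), chosen after their values were seen. The list's median, 0.16, had the opposite sign of its calls, and it was -0.53 without LT-HSC library 1. Mpo, myeloperoxidase of granulocyte precursors, showed this library apart: it measured 682, 1.53, 3.86 and 0.533 CPM in LT-HSC libraries 1 to 4 and 55.0, 54.5, 68.4 and 77.8 CPM in ST-HSC libraries 1 to 4 (log2 1.42, adjusted p = 0.58). Without library 1 the LT-HSC mean was 1.97 rather than 172 CPM, and Mpo was lower in LT-HSC (log2 -5.09, adjusted p = 0.0037).

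Markers of granulocytes moved with that library. The 15 granulocyte markers that were counted together took 0.0926% of the counts of LT-HSC library 1, where the other LT-HSC libraries had a median of 0.00322%. Mpo is one of these markers, so this share is not separate from its value. In that library the tested markers summed to 871 CPM, most of it the 682 CPM of Mpo. Their share was 0.00295% to 0.0926% over the LT-HSC libraries and 0.00882% to 0.0421% over the ST-HSC libraries, with ST-HSC library 4 highest. None of the 12 granulocyte markers tested passed edgeR's test or limma-voom's, 1 had an unadjusted p under 0.05, and DESeq2 called 1 higher. Without LT-HSC library 1 edgeR called 1 lower, Mpo. The part of such cells in the myeloid values was not tested. The young counts of higher and lower genes were 800 and 770 with LT-HSC library 1 and libraries 2 and 3 of aged ST-HSC left out together, a set that earlier results of these data had set apart. Granulocyte markers do not single out that pair among the aged ST-HSC, whose libraries 1 to 4 held 0.295%, 0.261%, 0.241% and 0.0171%.

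The other 6 marker lists were also at low levels. Their shares of counts ran from 0.000730% to 0.0685% over the 8 libraries. In LT-HSC and ST-HSC, T and NK cell markers took 0.00924% and 0.0121%, monocyte markers 0.0462% and 0.0351%, and endothelial and stromal markers 0.0177% and 0.0293%, each with an exact permutation p of 0.0286, the smallest that 4 against 4 allows, and 0.0667 after adjustment over the 7 lists. Erythroblast markers took 0.0197% and 0.0408% (exact permutation p = 0.11, adjusted p = 0.16). Of all tested genes 6.79% were higher and 5.74% lower. B and plasma cell markers had 1 of 16 members higher, Xbp1 (103 against 64.3 CPM), and 1 lower, Sdc1 (2.79 against 17.5 CPM). T and NK cell markers had 1 of 6 higher, Klrb1c (7.90 against 1.31 CPM), and 2 lower, Nkg7 and Lck (12.8 against 28.1 CPM), endothelial and stromal markers 1 of 13 higher, Kdr, and 2 lower, Pdgfrb and Pecam1 (87.4 against 129 CPM), and monocyte markers 1 of 16 lower, Itgax, with 3 counts in LT-HSC and 40 in ST-HSC. No erythroblast or mast cell marker passed edgeR's test, DESeq2's or limma-voom's, and 2 and 0 had an unadjusted p under 0.05. Among defining markers, Ms4a1, Pax5 and Igll1 of B cells, Cd3e, Cd3g, Cd2, Ncr1, Gzma and Gzmb of T and NK cells and Fcer1a, Prss34, Tpsab1, Tpsb2 and Cma1 of mast cells and basophils had no count in the 8 libraries, nor did the hemoglobin genes Hba-a1, Hba-a2, Hbb-bs and Hbb-bt, which are near-identical copies that counting can lose. No granulocyte, monocyte or endothelial and stromal marker was at 0 in all 8. The part of other cells in the results was not tested. Klrb1c, Lck, Pecam1, Itgax, Xbp1 and Sdc1 were named after their values were seen. The call of Xbp1 was lost with young LT-HSC library 1 and the aged ST-HSC pair given above left out (log2 0.57, adjusted p = 0.055). Without ST-HSC library 3 the ST-HSC mean of Klrb1c was 0.862 rather than 1.31 CPM. The call of Klrb1c was lost without LT-HSC library 4 (0.068), ST-HSC library 1 (0.075) or ST-HSC library 2 (0.077). That of Itgax was lost without LT-HSC library 2, 3 or 4 or ST-HSC library 1 or 3 (adjusted p from 0.060 to 0.091) and by limma-voom (0.32), its log2 difference was -6.38 rather than -3.62 without LT-HSC library 1, and its ST-HSC mean was 0.687 rather than 1.11 CPM without ST-HSC library 1.

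**Figure D4:**
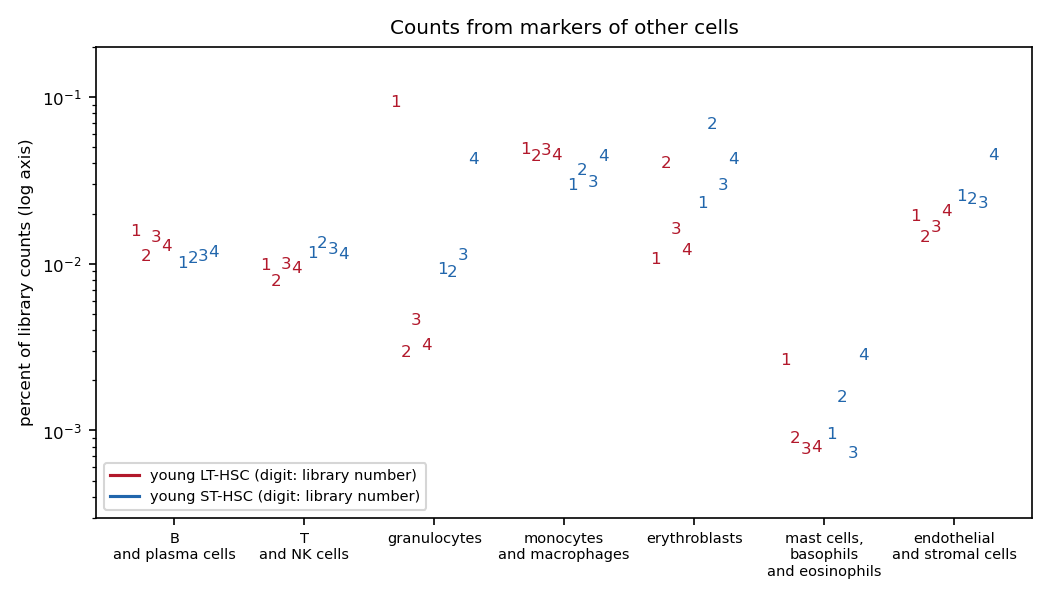
Percent of counts taken by each list of markers of other cell types in every young LT-HSC and young ST-HSC library, on a log axis, with digits giving the library number. LT-HSC library 1 stands at 0.0926% for granulocyte markers, above the other 7 libraries.

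Of 23 genes of erythroid priming 4 were higher in LT-HSC (Itga2b, Zfpm1, Gata2 and Gfi1b) and none was lower. The share higher was 17.4%, beside 6.79% of all tested genes, while limma-voom called none lower and DESeq2 1. These 4 are transcription factors and an integrin that stem cells and megakaryocytes share with red cell precursors. Zfpm1 (FOG1), a partner of GATA factors, measured 261, 289, 244 and 243 CPM in LT-HSC against 143, 178, 136 and 125 CPM in ST-HSC (log2 0.83 ± 0.11 (SE), adjusted p = 4.9e-06). Gfi1b measured 33.9, 62.8, 71.3 and 63.0 CPM in LT-HSC against 27.1, 20.9, 22.8 and 27.5 CPM in ST-HSC (log2 1.24 ± 0.34 (SE), adjusted p = 0.019), with no overlap, and its call was lost without LT-HSC library 3 (0.054), ST-HSC library 2 (0.055) or ST-HSC library 3 (0.052). The list's median of -0.48 had the opposite sign of its calls and ran from -0.49 without ST-HSC library 1 to -0.08 without ST-HSC library 2, and erythroblast markers took the shares given above.

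No gene of the cell cycle machinery passed the test between the young populations in the fit to all 24 libraries. By edgeR this held for 20 genes of replication licensing, 47 of DNA synthesis, 60 of G2 and mitosis and 43 replication histones. Of these, 1, 5, 1 and 0 had an unadjusted p under 0.05, DESeq2 called none, and limma-voom called 1 gene of DNA synthesis higher. The medians were 0.06, 0.17, -0.22 and 0.11. Mcm2, a subunit of the replicative helicase, measured 177, 333, 279 and 234 CPM in LT-HSC libraries 1 to 4 and 243, 214, 191 and 229 CPM in ST-HSC libraries 1 to 4. The groups overlapped, and the log2 difference was 0.22 (95% interval -0.09 to 0.54, adjusted p = 0.45). Mcm3 measured 327 ± 50.9 against 276 ± 45.9 CPM (95% interval 0.01 to 0.48), Orc6, of the origin recognition complex, 18.5 ± 1.95 against 16.5 ± 3.22 CPM (-0.18 to 0.51) and Mcmbp 151 ± 9.56 against 166 ± 7.54 CPM (-0.28 to 0.00).

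Tyms, thymidylate synthase, measured 40.7, 34.7, 48.9 and 52.7 CPM in LT-HSC libraries 1 to 4 and 42.4, 26.2, 17.1 and 36.7 CPM in ST-HSC libraries 1 to 4 (95% interval 0.11 to 0.97, adjusted p = 0.12), with overlapping groups. Rfc5 and Rfc3, subunits of the clamp loader, had intervals of 0.08 to 0.61 and 0.05 to 0.58, and Ung, uracil-DNA glycosylase, 0.08 to 1.02. Mki67, the proliferation antigen Ki-67, measured 203, 176, 121 and 261 CPM in LT-HSC libraries 1 to 4 and 401, 240.4, 264 and 329 CPM in ST-HSC libraries 1 to 4 (95% interval -1.37 to -0.02, adjusted p = 0.24). Its groups overlapped by 1 pair of libraries, since LT-HSC library 4 lay above ST-HSC library 2. Ect2, a regulator of cytokinesis, measured 21.4, 18.3, 20.6 and 23.5 CPM in LT-HSC against 64.0, 31.0, 23.7 and 39.3 CPM in ST-HSC without overlap (95% interval -1.67 to -0.14, adjusted p = 0.16). Kif23, a kinesin of cytokinesis, had 31.0 ± 7.64 against 51.1 ± 13.0 CPM (-1.41 to -0.01), and Cenpa, the centromeric histone, 22.2 ± 3.11 against 30.7 ± 5.21 CPM (-0.95 to 0.01). These intervals rest on a normal quantile and are narrower than the quasi-likelihood test's own. Of the 60 genes of G2 and mitosis only Ect2 had an unadjusted p under 0.05 by that test, so Mki67 and Kif23 did not. Without ST-HSC library 1, the ST-HSC library with the most Tyms, Mki67, Ect2 and Kif23, 5 genes of DNA synthesis were higher in LT-HSC, Rfc5, Tyms and Rfc3 among them. Without LT-HSC library 1 the one such gene was Ung. In the fit to the 8 libraries alone 3 genes of G2 and mitosis were lower in LT-HSC, Ect2 and Kif23 among them.

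Of 24 CDK inhibitors, G1 cyclins and related genes, the regulators of cycle entry, 3 were higher and 2 lower, or 12.5% and 8.33% beside 6.79% and 5.74% of all tested genes. Cdk6, the kinase that partners D cyclins and sets how fast stem cells leave quiescence, measured 138, 207, 177 and 136 CPM in LT-HSC libraries 1 to 4 and 355, 344, 299 and 380.0 CPM in ST-HSC libraries 1 to 4, a log2 difference of -1.07 ± 0.11 (SE), adjusted p = 7.5e-08. Every LT-HSC library held less than any ST-HSC library. Cdkn1c is given above. Ccnd2 (cyclin D2) measured 1024, 970.3, 804 and 847 CPM in LT-HSC against 584, 716, 657 and 555 CPM in ST-HSC (log2 0.54 ± 0.10 (SE), adjusted p = 3.5e-04) and Ccnd1 (cyclin D1) 55.5, 74.8, 78.6 and 62.9 CPM in LT-HSC against 45.5, 53.2, 54.9 and 33.0 CPM in ST-HSC (log2 0.54 ± 0.14 (SE), adjusted p = 0.010), both without overlap, and the call of Ccnd1 was lost without ST-HSC library 4 (0.055). Ccng2 had 34.2 against 48.6 CPM (adjusted p = 0.014) with overlapping groups, and its call was lost without LT-HSC library 2 (0.067) or ST-HSC library 4 (0.12).

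In aged mice many members of the same lists passed the test. Of the licensing, DNA synthesis, G2 and mitosis and histone genes 17, 40, 51 and 32 were lower in aged LT-HSC than in aged ST-HSC, where 16.1% of all tested genes were lower. The medians there were -1.17, -1.10, -1.61 and -2.06. The difference between the ages was tested as the young difference minus the aged difference: 575 genes (4.05%) passed, 340 (2.39%) with a higher and 235 (1.65%) with a lower difference in young mice. Among the 4 lists 12, 23, 2 and 7 members passed, all with the higher difference in young mice. For Mcm2 the differences were 0.22 in young and -1.36 in aged mice (young minus aged 1.58, adjusted p = 2.5e-04), for Tyms 0.54 and -1.31 (1.86, 0.0010) and for Ung 0.55 and -1.64 (2.20, 5.0e-04). These 3 passed under every alternative tried. For Mki67 they were -0.69 and -1.97 (1.28, 0.16), which did not pass. The count of 2 for G2 and mitosis moved with the libraries and the tool. It was 29 without aged LT-HSC library 4, whose summed G2 and mitosis genes were the highest of that group, 12 without young ST-HSC library 1, 9 without aged ST-HSC library 3, and 4 without young or aged LT-HSC library 1. DESeq2 gave 12 and limma-voom 30. That for DNA synthesis was 36 rather than 23 without aged ST-HSC library 3.

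**Figure D5:**
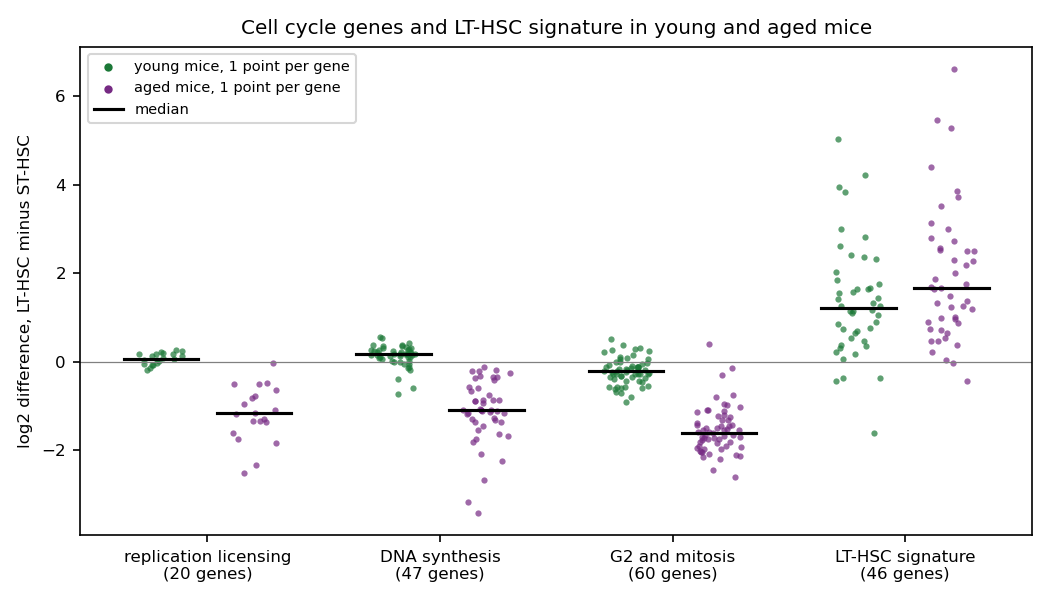
LT-HSC minus ST-HSC log2 difference of each gene in young and in aged mice, for replication licensing (20 genes), DNA synthesis (47), G2 and mitosis (60) and the LT-HSC signature (46). The cell cycle lists lie around 0 in young mice, with medians of 0.06, 0.17 and -0.22, and below it in aged mice, while the LT-HSC signature lies above 0 at both ages, with medians of 1.21 and 1.66.

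Genes outside the cell cycle also differed between the ages. Gpr183, a receptor for oxysterols that guides immune cells, measured 21.7, 15.3, 12.6 and 17.3 CPM in LT-HSC libraries 1 to 4 and 16.5, 18.6, 15.5 and 17.7 CPM in ST-HSC libraries 1 to 4 in young mice. The young populations overlapped, with a log2 difference of -0.03, whereas the aged difference was 3.49 (young minus aged -3.52, adjusted p = 1.7e-10). Alcam had -0.44 in young and 1.65 in aged mice (-2.09, 2.5e-08), and Vldlr -1.62 and 0.03 (-1.65, 0.0042). Both were lower in young LT-HSC, while in aged LT-HSC Alcam was higher and Vldlr did not pass the test. Kcna3, a potassium channel of lymphocytes, had 25.2 ± 3.17 against 57.2 ± 5.42 CPM and differences of -1.18 and -3.03 (1.85, 5.7e-07). Slc28a2, a nucleoside transporter, had 46.1 ± 4.32 against 62.6 ± 3.23 CPM and differences of -0.44 and -2.31 (1.87, 4.9e-07). Enpp5 had 51.7 ± 5.79 against 32.4 ± 4.19 CPM and differences of 0.67 and 2.41 (-1.73, 1.1e-06). For each of these 6 genes the test of the difference between ages passed under every alternative tried. All but Vldlr were named for their small p in this same test, so their passing was set by that choice. The young call of Slc28a2 was lost without LT-HSC library 2, 3 or 4 or ST-HSC library 1 or 3 (adjusted p from 0.055 to 0.078), and that of Alcam as given above.

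Each of the 23 leading genes named above was also called in the same direction in aged mice. In the LT-HSC signature 40 of 46 members were higher in aged LT-HSC, beside 16.2% of all tested genes, and the 11 members that passed the test between ages all had a young minus aged difference below 0, among them Vwf (3.95 in young, 5.28 in aged mice, adjusted p = 0.021) and Sult1a1 (2.61 and 3.85, 6.3e-04). Without single libraries that count ran from 5 to 12, with 5 without young ST-HSC library 2, 6 when young LT-HSC library 3 or aged LT-HSC library 2 was left out, and 7 when it was young LT-HSC library 2 or 4, young ST-HSC library 3 or aged ST-HSC library 1. Genes lower in LT-HSC had smaller differences in young mice for Flt3 (-3.77 and -4.90, 9.1e-04), Satb1 (-2.79 and -4.40, 1.2e-04), Cd34 (-1.94 and -2.97, 4.0e-04) and Nkg7 (-1.69 and -4.69, 7.6e-05). The young and aged comparisons share no library. Of the myeloid list 24 of 31 members were lower in aged LT-HSC and 14 had a higher difference in young mice, beside granulocyte markers at 0.0171% to 0.295% of the counts of the aged ST-HSC libraries and 0.00698% to 0.00793% of the aged LT-HSC libraries. The part of those cells was not tested.

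Few genes of the mitochondrial lists passed the test, where 6.79% of all tested genes were higher and 5.74% lower. Of 77 nuclear genes of oxidative phosphorylation none was higher and 1 was lower in LT-HSC, Ndufa4, with 119, 105, 116 and 101 CPM in LT-HSC against 148, 127, 131 and 151 CPM in ST-HSC (log2 -0.33 ± 0.09 (SE), adjusted p = 0.018), a call lost without LT-HSC library 2 or 4 or ST-HSC library 1 or 4 (adjusted p from 0.070 to 0.10). Of that list 2 genes had an unadjusted p under 0.05, DESeq2 called 0 higher and 1 lower and limma-voom 0 and 2. None of 77 mitochondrial ribosome genes passed edgeR's, DESeq2's or limma-voom's test, and 3 had an unadjusted p under 0.05. Ucp2, an uncoupling protein of the inner mitochondrial membrane, was the one lower of 51 genes of mitochondrial dynamics and quality control, with 234, 292, 299.7 and 280.1 CPM in LT-HSC against 376, 457, 379 and 384 CPM in ST-HSC (log2 -0.53 ± 0.09 (SE), adjusted p = 6.1e-05). Park2, the ubiquitin ligase parkin, was the one higher, with 22.1, 12.4, 11.5 and 10.2 CPM in LT-HSC against 6.75, 7.10, 7.20 and 5.98 CPM in ST-HSC (log2 1.05 ± 0.27 (SE), adjusted p = 0.0082), and its call was lost without LT-HSC library 1 (0.073). Nrf1 and Clpp of that list did not pass, with 109.7 ± 7.42 against 131 ± 14.6 CPM and 36.2 ± 3.61 against 28.1 ± 3.81 CPM, nor did Cox7c (4.87 ± 0.869 against 8.46 ± 1.20 CPM), Uqcr10 (16.4 ± 5.48 against 12.4 ± 1.52 CPM) and Ndufa13 (51.7 ± 3.94 against 44.1 ± 3.33 CPM) of the respiratory chain.

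Glycolysis and the TCA cycle had 5 of 45 genes higher and 2 lower, or 11.1% and 4.44% beside 6.79% and 5.74% of all tested genes. Hk3, the hexokinase of myeloid cells, measured 72.0, 50.5, 51.8 and 52.5 CPM in LT-HSC libraries 1 to 4 and 129, 153, 126 and 151 CPM in ST-HSC libraries 1 to 4, a log2 difference of -1.30 ± 0.19 (SE), adjusted p = 2.6e-05. Ldha, lactate dehydrogenase A, measured 547, 533, 440.2 and 409 CPM in LT-HSC against 319, 324, 308 and 428 CPM in ST-HSC (log2 0.48 ± 0.11 (SE), adjusted p = 0.0023), with ST-HSC library 4 above the lowest LT-HSC value, so the groups overlapped. Idh2 had 149 ± 16.6 against 184 ± 8.01 CPM (log2 -0.31 ± 0.09 (SE), adjusted p = 0.016), a call lost without LT-HSC library 1 or 4 or ST-HSC library 2 (adjusted p from 0.067 to 0.10). Pfkp, phosphofructokinase, had 72.8 ± 8.27 against 53.3 ± 6.26 CPM (log2 0.45 ± 0.13 (SE), adjusted p = 0.025), a call lost without LT-HSC library 1 or 2 or ST-HSC library 1 or 3 (0.054 to 0.078). Pdk4, which slows pyruvate entry to mitochondria, had 16.3, 4.98, 6.26 and 9.21 CPM in LT-HSC against 1.00, 0, 0.568 and 4.11 CPM in ST-HSC (adjusted p = 0.042). That call was lost without any 1 of LT-HSC libraries 1, 3 and 4 and ST-HSC libraries 1 to 3 (0.053 to 0.13), by DESeq2 (0.096), with no count filter (0.067) and in the fit to the 8 libraries alone (0.080), and the log2 difference was 2.71 with and 4.13 without ST-HSC library 4, where the ST-HSC mean was 0.523 rather than 1.42 CPM. Slc2a1, the glucose transporter GLUT1 (115 against 82.6 CPM), lost its call without LT-HSC library 1, 2 or 4 or ST-HSC library 1, 2 or 4 (0.050 to 0.13), and Suclg2 (37.3 against 28.0 CPM) without LT-HSC library 1, 2 or 4 or ST-HSC library 1 or 2 (0.058 to 0.15). Pdk4, Slc2a1 and Suclg2 were named after their values were seen.

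Of 40 immediate early genes, which respond to signals and to cell handling, 3 were higher and 1 lower in LT-HSC. These were 7.5% and 2.5%, beside 6.79% and 5.74% of all tested genes. Dusp6, a phosphatase that limits ERK signalling, measured 105, 112, 134 and 139 CPM in LT-HSC libraries 1 to 4 and 204, 189, 237 and 236 CPM in ST-HSC libraries 1 to 4, a log2 difference of -0.82 ± 0.13 (SE), adjusted p = 3.3e-05. Nr4a2, an orphan nuclear receptor, measured 47.8, 71.0, 67.2 and 47.1 CPM in LT-HSC against 27.8, 39.5, 28.5 and 19.9 CPM in ST-HSC (log2 1.00 ± 0.22 (SE), adjusted p = 0.0028), and Trib1, a pseudokinase that controls Cebpa protein, 18.4, 17.9, 18.7 and 18.9 CPM in LT-HSC against 8.76, 13.2, 11.1 and 9.59 CPM in ST-HSC (log2 0.79 ± 0.20 (SE), adjusted p = 0.0069). Dusp6, Nr4a2 and Trib1 had no overlap between the groups. Egr3 measured 48.8, 60.0, 119.6 and 108 CPM in LT-HSC against 16.8, 26.2, 23.2 and 50.9 CPM in ST-HSC (log2 1.53 ± 0.42 (SE), adjusted p = 0.020) with overlap of ST-HSC library 4, and its call was lost without LT-HSC library 3 or 4 or ST-HSC library 1, 2 or 3 (adjusted p from 0.053 to 0.066). The count of higher genes was 7 without LT-HSC library 1 and 5 without ST-HSC library 2.

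The called members of the remaining lists were named after their values were seen. Shares higher and lower were 5.26% and 15.8% for MHC, 8.89% and 2.22% for interferon and 3.23% and 16.1% for chromatin genes. All tested genes had 6.79% and 5.74%. Of 19 MHC genes 3 were lower, H2-Ob, a regulator of class II peptide loading (12.8 against 76.1 CPM, log2 -2.57), H2-DMa (85.3 against 133 CPM, log2 -0.64) and the peptide transporter Tap2 (142 against 219 CPM, log2 -0.63), and 1 was higher, H2-T23 (216 against 176 CPM), whose call was lost without LT-HSC library 1 (adjusted p = 0.072) or ST-HSC library 3 (0.058) or 4 (0.091). Of 45 interferon-stimulated genes 4 were higher, Ifitm1 (262 against 155 CPM, log2 0.76), Ifitm3 (351 against 242 CPM, log2 0.53), Ifit2 (17.6 against 10.8 CPM, log2 0.70) and Gbp3 (42.8 against 30.8 CPM), and 1 was lower, Ddx58, the RNA sensor RIG-I (141 against 195 CPM, log2 -0.47). The call of Gbp3 was lost without LT-HSC library 1, 2 or 4 or ST-HSC library 2, 3 or 4 (0.058 to 0.16). Of 31 chromatin regulators 5 were lower, Satb1, the demethylase Kdm5b (207 against 310.3 CPM, log2 -0.58), the DNA oxidase Tet3 (255 against 336 CPM, log2 -0.40), and the Polycomb genes Eed (22.5 against 30.3 CPM) and Asxl1 (195 against 241 CPM), and 1 was higher, Pcgf2 (24.5 against 13.8 CPM, log2 0.83). Eed lost its call without LT-HSC library 1, 2 or 4 or any 1 ST-HSC library (0.055 to 0.13), and Asxl1 without LT-HSC library 1, 3 or 4 or ST-HSC library 2 (0.057 to 0.11).

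Of 53 lysosome and autophagy genes 3 were higher, Gabarapl1 (141 against 89.4 CPM, log2 0.66), Hexa (54.9 against 38.5 CPM, log2 0.51) and Gaa (log2 0.37), and 2 lower, the cholesterol transporter Npc1 (95.5 against 138 CPM, log2 -0.53) and the protease Ctss (9.35 against 20.9 CPM). Gaa lost its call without LT-HSC library 1 (adjusted p = 0.093) or ST-HSC library 1 (0.074) or 4 (0.077), and Ctss without LT-HSC library 1, 2 or 3 or ST-HSC library 1, 3 or 4 (0.060 to 0.11), by limma-voom (0.12) and with no count filter (0.056). Of 29 genes of one-carbon and nucleotide synthesis 2 were lower, Impdh1, of guanine nucleotide synthesis (86.8 against 190.0 CPM, log2 -1.13), and Phgdh, of serine synthesis (80.9 against 98.3 CPM), whose call was lost without LT-HSC library 1, 3 or 4 or ST-HSC library 1, 2 or 3 (0.078 to 0.21). Of 76 cytosolic ribosomal proteins 1 was higher, Rpl19 (203 against 165 CPM, log2 0.30), a call lost without LT-HSC library 3 (0.084) or 4 (0.051) or ST-HSC library 4 (0.093). None of 40 ribosome biogenesis genes passed edgeR's, DESeq2's or limma-voom's test, and 1 had an unadjusted p under 0.05. Shares higher and lower were 5.66% and 3.77% for lysosome, 0% and 6.90% for one-carbon and 1.32% and 0% for ribosomal protein genes. All tested genes had 6.79% and 5.74%.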

How the data were processed

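Raw integer counts per gene symbol, not normalized, were deposited by the authors in one table of 24421 genes for 24 libraries, made with Trim Galore, HISAT2 and featureCounts on mm10, per the submitters' processing notes. The tools' versions, the annotation and any use of strand were not given in the sources used here, so antisense and overlapping genes cannot be told apart. Spreadsheet software had turned 27 symbols into dates, and these were not named. From the counts, filterByExpr retained 14205 genes with 99.9% of all counts, and edgeR 4.0.16 (R 4.3.3) fitted a quasi-likelihood model with TMM factors and 1 mean per group to all 24 libraries, with 18 residual degrees of freedom and a common dispersion of 0.0454. Tests are two-sided, with a threshold of 0.05 on Benjamini-Hochberg adjusted p-values. CPM use TMM-scaled library sizes and are means ± SD over 4 libraries. Replicate libraries differed by more than counting noise, with a chi-square per degree of freedom of 8.57 to 22.4, so none was a copy of another.

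Named genes are Slamf1, Cd48, Ly6a and Kit, up to 12 genes per direction of largest difference among called genes with at least 10 CPM and no overlap, up to 4 members of smallest p in each of 18 described lists, and the 6 genes of smallest p between ages. Some genes that this rule names are not reported here. Predicted gene models, pseudogenes and symbols that are dates are passed over, and other genes are said to be chosen after their values were seen. The comparison, gene lists, rule and alternatives were chosen with earlier results of these data known. Alternatives were DESeq2 1.42.0 and its size factors, limma-voom (limma 3.58.1), no filter, 45S and hemoglobin genes left out, fits to only the libraries compared, a replicate block, and leaving out libraries. The calling code was tested on simulated counts. Gene spans are GENCODE M21 on GRCm38 and promoters RefSeq on GRCm38.p6. Counting intervals are exact and, like floors, cover counting error only.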

Additional observations from a re-analysis of the deposited data

Results flagged for a closer look

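In each group of 4 libraries a value was singled out when its gap to the nearest other value as a share of the whole range of the group was above Dixon's 95% critical value, a bound that chance passes in about 1 in 20 groups. For the named genes only groups with a highest value of at least 10 CPM were screened. Among them 23 such values were found, given here in CPM with the median of the other libraries of their group. With 140 named genes past the threshold and 28 others screened in both populations, chance alone passes the bound in a number of groups. Young LT-HSC library 1 stood apart for Igf2bp2 (31.2, median 23.7), Slc28a2 (52.6, median 43.9), Hk3 (72.0, median 51.8), Slc35d3 (10.6, median 2.09), Mpo (682, median 1.53) and Uhrf1 (128, median 242). In LT-HSC library 2 it was Gfi1 (12.3, median 21.3). LT-HSC library 3 stood apart for Ndn (45.1, median 31.2), Itgb3 (125, median 169) and Socs2 (40.8, median 25.2). In LT-HSC library 4 it was Abcg2 (67.1, median 75.8). Young ST-HSC library 2 stood apart for Cd244 (41.3, median 52.3), Ucp2 (457, median 379), Il1r1 (56.3, median 84.9) and Mgst3 (17.3, median 6.85). ST-HSC library 3 stood apart for Sult1a1 (14.4, median 20.6) and Hlf (1546, median 1357). ST-HSC library 4 stood apart for Vwf (25.4, median 21.1), Nrf1 (153, median 123), Ldha (428, median 319), Tek (30.4, median 19.8), Plac8 (82.5, median 104) and Phgdh (84.7, median 102). LT-HSC library 1 and ST-HSC library 4 each had 6 of the 23 values, more than any other library. By the same bound LT-HSC library 1 stood apart for granulocyte markers (0.0926% of counts, median 0.00322%) and for markers of mast cells, basophils and eosinophils (0.00262%, median 0.000788%), and ST-HSC library 4 for granulocyte markers (0.0421%, median 0.00919%) and for endothelial and stromal markers (0.0444%, median 0.0242%). Mpo is one of the granulocyte markers, so its value in LT-HSC library 1 also enters their share. Whether other cells in these libraries account for any gene value was not tested.

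The LT-HSC minus ST-HSC difference of 36 named genes was not the same in young and aged mice by edgeR's quasi-likelihood test of the young minus aged difference, and 20 of them passed under every alternative tried. The named genes comprise 140 past the young threshold and 28 others, and 4.05% of all tested genes passed. Gpr183, Alcam, Slc28a2, Kcna3 and Enpp5 were named for their small p in this same test, so their passing was set by that choice. Those that passed throughout with a higher difference in young mice were Flt3 (1.12), Slc28a2 (1.87), Kcna3 (1.85), Satb1 (1.61), Cd34 (1.03), Nkg7 (3.00), Mcm3 (1.21), Mcm2 (1.58), Tyms (1.86), Ung (2.20), Ucp2 (0.68), Idh2 (0.51) and Mcm5 (1.98), values being young minus aged log2 differences. Those with a lower difference in young mice were Vwf (-1.32), Gpr183 (-3.52), Alcam (-2.09), Enpp5 (-1.73), Mllt3 (-0.84), Sult1a1 (-1.23) and Vldlr (-1.65). The others passed in the fit to all libraries and lost the call under at least 1 alternative: Cd48 (3.10), Tespa1 (2.34), Cd244 (2.02), Mcmbp (0.38), Orc6 (0.95), Mpo (12.56), Uhrf1 (2.26), Phgdh (0.52), Ctss (2.00), Cd53 (-1.5), Ndn (-1.32), Plxnc1 (-0.52), Plek (-1.44), Itgb3 (-1.62), Fgd5 (-1.16) and Ifitm3 (-0.65). Of these, Mpo rests on young LT-HSC library 1, and its difference was 6.05 (adjusted p = 0.12) without that library, while Cd48 had 1.89 (0.13) without young LT-HSC library 3. The calls of Cd244 and Cd53 were lost only in fits to the 16 libraries of the 4 groups, and that of Phgdh only without young ST-HSC library 4 (0.058).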

How the results depend on the processing

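The young count of 1780 genes, its 964 higher and its 816 lower genes stayed within 1.5 times under all 16 alternatives: 1428 to 1575, 753 to 899 and 631 to 729 without single libraries, and 1570 to 1950, 800 to 1099 and 718 to 851 otherwise. The count of genes that differ between ages moved more. Against 575 (340 with a higher and 235 with a lower difference in young mice) it was 944 (543 and 401) by DESeq2 and 897 (529 and 368) without 3 libraries that earlier results had set apart (number 1 of young LT-HSC, numbers 2 and 3 of aged ST-HSC). Without single libraries it ran from 377 (without young LT-HSC library 3) to 822, the higher part from 246 to 556 (without aged ST-HSC library 3) and the lower part from 131 (without young LT-HSC library 3) to 310. The lower part was also 147 and 155 without young LT-HSC library 2 or 4, 149 without young ST-HSC library 2, and 153 and 144 without aged LT-HSC library 1 or 2. Apart from the smaller number of samples, the cause was not tested. No gene past the threshold changed sign, nor did a count change its direction.

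Of 140 named genes past the threshold in young mice 109 stayed past it under every alternative that tested them and 31 lost the call under at least 1. Among the 109, Gp1bb and H19 were tested under 14 of the 16 alternatives. Of 28 named genes that did not pass 11 did under at least 1 alternative: Mcm3, Mcm2, Ung, Rfc5, Tyms, Rfc3, Ect2, Mki67, Kif23, Cox7c and Mpo. Calls of Pdk4, Suclg2, Phgdh, Gbp3, Eed and Ctss were lost with no count filter (adjusted p from 0.055 to 0.086), those of Pdk4, Suclg2, Phgdh, Eed and Egr3 in the fit to the 8 libraries (0.051 to 0.082), and that of Phgdh with DESeq2's size factors (0.062). Without the 3 libraries Park2 (0.078), Slc2a1 (0.14), Suclg2 (0.15), Phgdh (0.12), H2-T23 (0.079), Gbp3 (0.14), Eed (0.059), Ctss (0.077), Gaa (0.10), Klrb1c (0.058), Xbp1 (0.055) and Pdk4 (0.13) lost theirs.

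Mpo, with a log2 difference of 1.42 that did not pass, turned to -5.09 (adjusted p = 0.0037) without young LT-HSC library 1, -5.10 (0.0070) without the 3 libraries, -3.58 (0.30) by limma-voom and -2.88 (0.64) with the replicate block. Differences near 0 that did not pass also changed sign. That of Pcna, a DNA clamp, turned to 0.0112 with DESeq2's size factors, 0.0106 by DESeq2, 0.0289 by limma-voom, 0.00747 with no count filter and 0.0622 without the 3 libraries. Without single libraries the log2 difference ran from -0.0744 to 0.14 for Pcna, -0.14 to 0.0717 for Ly6a, -0.0206 to 0.0681 for Kit, -0.17 to 0.10 for Gpr183, -0.0490 to 0.19 for Procr, -0.30 to 0.0595 for Ccnb1, -0.59 to 0.12 for Top2a and -5.09 to 1.85 for Mpo. The LT-HSC minus ST-HSC difference in share of counts ran from -0.0142 to 0.0161 percentage points for granulocyte markers and from -0.000705 to 0.000180 for those of mast cells, basophils and eosinophils. Medians turned sign as well, for myeloid priming from 0.16 to -0.53 without young LT-HSC library 1, for G2 and mitosis from -0.22 to 0.09 without young ST-HSC library 1, and for replication histones from 0.11 to -0.39 without young LT-HSC library 4. Of the cell cycle lists 2 licensing genes were higher without the 3 libraries. Members of the G2 and mitosis list that differ between ages numbered 2, but 12 by DESeq2 and 30 by limma-voom.

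Same-numbered LT-HSC and ST-HSC libraries correlated by -0.019, 0.122, 0.0346 and -0.00674 in their deviations from the group means. Whether same-numbered libraries share a mouse cannot be told from these values or from the labels. With the replicate block 1737 genes passed (966 higher and 771 lower), and 557 differed between ages; Slc35d3 (adjusted p = 0.052), Plek (0.063), Suclg2 (0.10), Phgdh (0.073), Eed (0.080) and Gaa (0.059) no longer passed, while Ect2 (0.010), Mki67 (0.0033) and Kif23 (0.0079) did. Between ages 6, 10 and 9 genes of licensing, DNA synthesis and G2 and mitosis passed with the block. Depth limits the genes at 0 to 3 counts in a population, for which bounds or ratios are given.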
